A study of Mus musculus with 3 samples.

Results

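The tricarboxylic acid (TCA) cycle and fatty acid oxidation genes described here are 42 mouse genes chosen by symbol, out of the 32285 genes listed in the count matrices. They comprise 25 genes of the TCA cycle, of pyruvate entry and of citrate use, and 17 genes of fatty acid oxidation. All 42 symbols were found. The genes were measured by single-cell RNA sequencing in lungs of mice aged 3 months, with 1 library for each of 3 treatments named PD00, Model and Control. The series title names PD00 as a peptidomimetic and mentions OVA (ovalbumin, an egg protein commonly used as an allergen), the tissue label is healthy mouse lung in all 3 libraries, and no label says whether the PD00 mice also received ovalbumin. The labels give no strain, sex, dose or number of animals per library.

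The TCA cycle oxidises acetyl-CoA in the mitochondrial matrix and passes the electrons to the respiratory chain. Pyruvate dehydrogenase feeds it from glucose, and beta-oxidation feeds it from fatty acids that enter the mitochondrion as carnitine esters through Cpt1a, Slc25a20 and Cpt2. Alveolar macrophages, which live in the air spaces and clear lipid-rich surfactant, are known for their reliance on lipid handling.

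The libraries held 9373, 11285 and 9368 cells after filtering in PD00, Model and Control, with a median of 4574, 4048 and 5231.5 unique molecular identifiers (UMIs) per cell. Cells were assigned to immune classes by marker genes, since no annotation was used. Alveolar macrophages made up 12.6% of PD00 cells, 5.81% of Model cells and 31.8% of Control cells. Levels are UMIs of the gene per 1000000 UMIs (CPM), summed over the cells of a class. With 1 library per treatment there is no test of a treatment. The 95% intervals given are exact and cover counting error only, and the spread between animals is unknown. A ratio of at least 1.5 in either direction between the sums is described as higher or lower, among genes that reached 50 UMIs when both sums were added. Between 31 and 43 cell barcodes were shared by any pair of libraries.

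Promoter sequence is shown for Acaa1b, Cpt1a, Mdh2 and Idh1, which are described in several classes below, and for the stretch between Hadha and Hadhb, which are transcribed away from each other. The letters are from RefSeq (GRCm38.p6), written 5′ to 3′ on the strand of the gene, or on the plus strand for Hadha-Hadhb. From the 250 bases before each RefSeq start, the longest run free of annotated exons is printed. Capitals mark CCAAT or GGGCGG on either strand, the core letters of the NF-Y and Sp1 motifs. Acaa1b lies at chr9:119157094-119157343 on the minus strand, Cpt1a at chr19:3323051-3323284 on the plus strand, Mdh2 at chr5:135778399-135778479 on the plus strand, Idh1 at chr1:65186501-65186682 on the minus strand, and the Hadha-Hadhb stretch at chr5:30155163-30155247.
Acaa1b: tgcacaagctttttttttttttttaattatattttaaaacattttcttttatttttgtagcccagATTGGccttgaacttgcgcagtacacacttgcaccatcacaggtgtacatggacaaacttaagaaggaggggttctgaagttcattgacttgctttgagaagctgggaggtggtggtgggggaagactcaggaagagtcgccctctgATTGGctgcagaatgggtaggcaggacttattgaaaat
Cpt1a: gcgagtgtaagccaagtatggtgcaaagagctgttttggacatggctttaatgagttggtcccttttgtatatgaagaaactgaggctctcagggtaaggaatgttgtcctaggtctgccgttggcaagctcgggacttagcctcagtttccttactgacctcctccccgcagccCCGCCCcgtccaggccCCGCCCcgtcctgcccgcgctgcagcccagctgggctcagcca
Mdh2: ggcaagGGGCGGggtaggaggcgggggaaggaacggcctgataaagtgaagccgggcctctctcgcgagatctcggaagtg
Idh1: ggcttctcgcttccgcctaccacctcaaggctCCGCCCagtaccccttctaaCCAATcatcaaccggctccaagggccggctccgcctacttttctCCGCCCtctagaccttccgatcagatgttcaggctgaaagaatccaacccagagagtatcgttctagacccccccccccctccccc
Hadha-Hadhb: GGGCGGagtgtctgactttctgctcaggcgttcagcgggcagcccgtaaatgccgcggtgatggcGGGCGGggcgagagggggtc

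Acaa1b had the lowest G or C share and the fewest CpG sites of the 39 members with a RefSeq window. Its 250 bases were 41.6% G or C, followed by 43.6% for Dld and 46.8% for Idh3b. The median was 60.8% for the members and 52.8% for 27025 genes. Acaa1b held 2 CpG sites, where the next lowest count was 8 and the median was 15 for the members and 6 for all genes. GGGCGG was found for 26 of 39 members (66.7%) and for 35.4% of all genes. CCAAT was found for 19 of 39 members (48.7%) and for 37.5% of all genes, and Acaa1b held 2 copies. AAGGTCA, the core letters bound by estrogen-related receptors, was found for 1 member, Acadm, and for 4.70% of all genes. Where a gene had more than 1 RefSeq window, a match in any of them counted, and its highest G or C share and CpG count were taken. All 3 motifs were searched on both strands, matches could overlap, and a match is a description of the letters.

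In the Control library, the genes were unevenly spread over the 10 immune classes with at least 50 cells. Of the 42 members, 19 had their highest level in alveolar macrophages, and for 13 of these the interval did not overlap that of the next class. Neutrophils were the lowest class for 31 members. This order was not counted over all genes, so it may hold for genes at large and is not read as particular to the members. Median depth was 14741.5 UMIs in alveolar macrophages and 1947 in neutrophils. Fatty acid oxidation genes summed to 1457 CPM in alveolar macrophages, 667 CPM in interstitial macrophages, 478 CPM in T cells and 277 CPM in neutrophils. TCA genes summed to 1664 CPM in alveolar macrophages, 1074 CPM in interstitial macrophages, 1017 CPM in T cells and 560 CPM in neutrophils. Alveolar macrophages were thus the class with the highest sum of these 4 for both lists.

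Among the genes of fatty acid entry, Cpt1a, the outer-membrane enzyme that commits fatty acids to the mitochondrion, stood at 188 CPM in Control alveolar macrophages and at 69.1 CPM in interstitial macrophages, the next class. Slc25a20, the carnitine-acylcarnitine carrier, had another order, with 94.2 CPM in dendritic cells, 67.8 CPM in neutrophils and 20.9 CPM in alveolar macrophages. The intervals of dendritic cells and neutrophils overlapped for this gene. In the beta-oxidation spiral, Hadh, the short-chain hydroxyacyl-CoA dehydrogenase, was highest in group 2 innate lymphoid cells (ILC2) at 83.5 CPM, against 43.9 CPM in alveolar macrophages, and these intervals did not overlap. Acadl, the long-chain acyl-CoA dehydrogenase, reached 106 CPM in ILC2 and 82.6 CPM in dendritic cells, with overlapping intervals. ILC2 were the highest class for 9 members, but for 1 of them alone, Hadh, the interval stood clear of the next class.

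Several TCA genes were uneven between classes, both cytosolic and mitochondrial. Idh1, the cytosolic NADP-dependent isocitrate dehydrogenase, had 177 CPM in Control alveolar macrophages, 116 CPM in classical monocytes, 12.6 CPM in neutrophils and 4.72 CPM in T cells. Aco1, the cytosolic aconitase that doubles as an iron sensor, had 40.1 CPM in alveolar macrophages and 14.8 CPM in interstitial macrophages, the next class. Of the mitochondrial enzymes, Idh3a, the catalytic subunit of the NAD-dependent isocitrate dehydrogenase, had 46.7 CPM in ILC2 and 1.58 CPM in neutrophils, and Idh2, the mitochondrial NADP-dependent enzyme, had 79.0 CPM in interstitial macrophages and 5.26 CPM in neutrophils. Sdha, the flavoprotein of succinate dehydrogenase, had 107 CPM in alveolar macrophages, 77.8 CPM in ILC2 and 62.2 CPM in T cells. Mdh2, the mitochondrial malate dehydrogenase, was highest in neutrophils at 189 CPM and had 112 CPM in alveolar macrophages and 111 CPM in T cells. Mdh1, its cytosolic counterpart, was highest in NK cells at 145 CPM. Pcx, the pyruvate carboxylase that refills oxaloacetate, was near the detection limit, at most 3.29 CPM in any Control immune class.

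**Figure D1:**
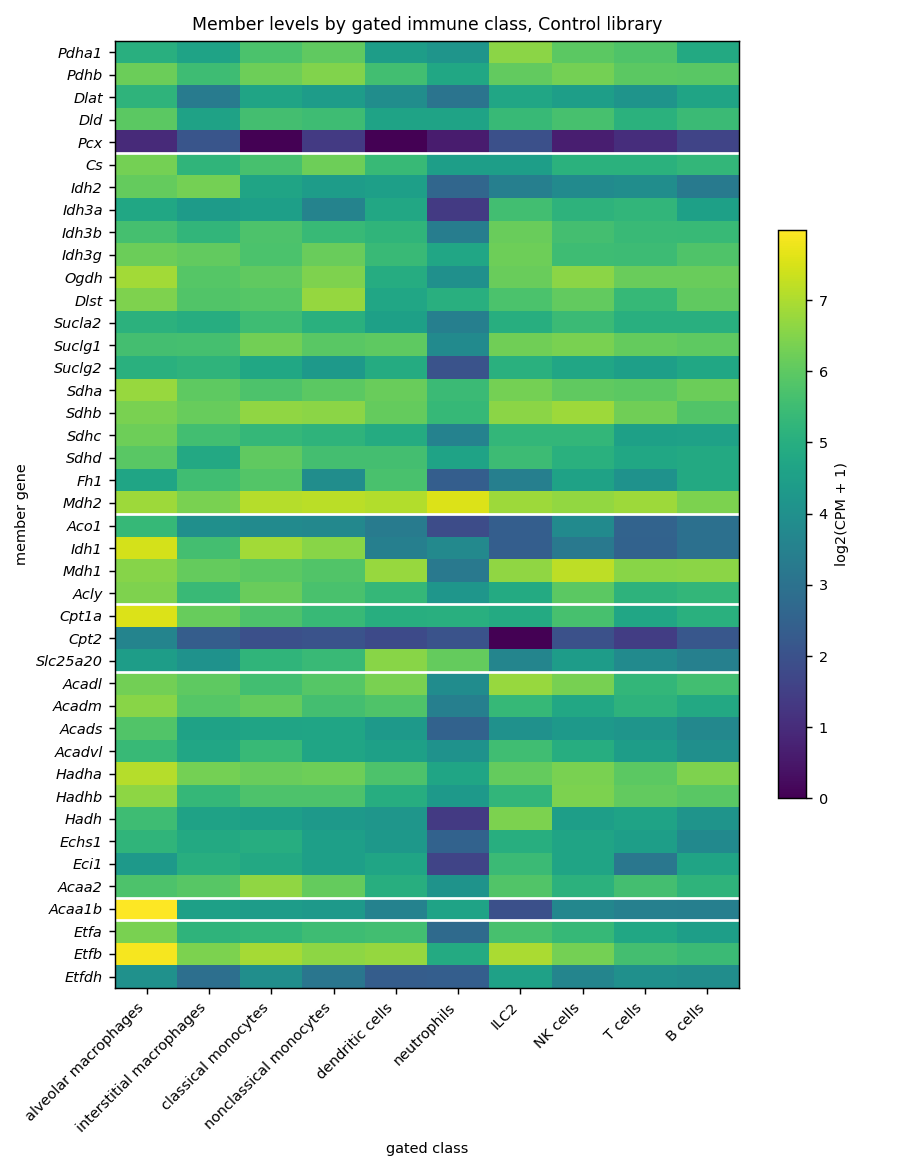
Level of each member gene (rows, by role, white lines between the roles) in each gated immune class of the Control library (columns), as log2(CPM + 1). Cpt1a and Acaa1b are brightest in alveolar macrophages, at 188 and 252 CPM. Neutrophils are the lowest class for 31 of 42 members, an order not counted over all genes.

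Alveolar macrophages were the highest class for 20 of 42 members in PD00, 21 in Model and 19 in Control, over all immune classes with enough cells in each library. Neutrophils were the lowest class for 25 members in PD00, 30 in Model and 31 in Control. Here too, the order was not counted over all genes.

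Free RNA in the droplets sets a limit on levels in the other classes. In Control, Acaa1b in B cells, T cells and neutrophils stood at 3.88%, 4.02% and 9.39% of its alveolar macrophage level. Of 5 genes that mark alveolar macrophages, Ear2 was at 4.48%, 3.66% and 9.80% there, Plet1 at 2.63%, 2.21% and 5.14%, and Krt79 at 2.87%, 2.94% and 3.03%. Fabp4 was at 3.18%, 2.46% and 10.4%, and Marco at 4.10%, 1.19% and 9.25%. Acaa1b lay within the range of the 5 markers in B cells and neutrophils and a little above it in T cells. Control Idh1 was at 3.75%, 2.67% and 7.13% in the same classes, within that range. Acaa1b and Idh1 values in Control T cells, B cells and neutrophils are therefore called background below, meaning a level near that of these markers. The markers' shares spread widely, so low expression cannot be told apart from free RNA. Cpt1a was at 17.3%, 13.4% and 16.8%, above the markers. In Model, Acaa1b was at 10.3%, 8.38% and 16.1% in B cells, T cells and neutrophils, on 11, 23 and 8 UMIs. The highest marker shares there were 7.77% for Fabp4, 2.76% for Ear2 and 7.85% for Ear2. The background reading of Acaa1b is thus given for Control only.

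In alveolar macrophages, the comparison of Model with Control asked how the genes differed in the treated lung. Acaa1b was lower and several TCA cycle enzymes were higher in Model. Of the 25 TCA genes, 5 were higher and 0 lower in Model, beside 14.2% of all 11307 measured genes higher and 25.1% lower. Of the 17 fatty acid oxidation genes, 1 was higher and 2 were lower. The median log2 ratio was 0.27 for the TCA genes and −0.08 for the oxidation genes, against −0.20 for all genes. The summed TCA level was 2224 CPM in Model against 1664 CPM in Control, and the summed oxidation level was 1186 CPM in Model against 1457 CPM in Control. The oxidation sum includes Acaa1b, which had 21.5 CPM in Model against 252 CPM in Control, and under median-of-ratios scaling the oxidation median was 0.12.

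Acaa1b encodes a peroxisomal 3-ketoacyl-CoA thiolase, which cleaves the chains that peroxisomes shorten. Its level in alveolar macrophages was 54.6 CPM in PD00 and 21.5 CPM in Model, against 252 CPM in Control. The Model level was 0.0854 times the Control level (95% interval 0.0756 to 0.0962). Model was the lowest library and PD00 lay between it and Control, with no overlap of the 3 intervals. Acaa1b UMIs were found in 41.3% of PD00, 25.2% of Model and 84.8% of Control alveolar macrophages, whose median depths were 18191, 19097 and 14741.5 UMIs. Among T cells, where its Control level is read as background, the shares were 1.10%, 0.920% and 4.67% at median depths of 4174, 4435 and 4303.5 UMIs. After each cell was thinned to 500 UMIs, the shares of alveolar macrophages were 2.71%, 1.07% and 11.1%. Acaa1a, a near-identical neighbouring gene on chromosome 9, was at 80.4 CPM in PD00 and 87.0 CPM in Model, against 113 CPM in Control. Reads that match both genes could have been split or dropped in the authors' counting, so the Acaa1b values are uncertain to that extent.

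Mdh2 showed the highest ratio of the TCA genes, with 254 CPM in Model against 112 CPM in Control (ratio 2.26, 2.16 to 2.36). Idh3a had 53.1 CPM in Model against 26.2 CPM in Control (ratio 2.03). Sdhd, a membrane anchor of succinate dehydrogenase, had 113 CPM in Model against 59.9 CPM in Control (ratio 1.89). Sdhc, the other anchor, had 111 CPM in Model against 73.2 CPM in Control (ratio 1.52). Idh1 had 293 CPM in Model against 177 CPM in Control (ratio 1.66). These 5 genes were the TCA genes past 1.5-fold. Sdha, with 155 CPM in Model against 107 CPM in Control (ratio 1.45), and Cs, the citrate synthase, with 101 CPM in Model against 78.0 CPM in Control (ratio 1.29), stayed under it. The iron-sulphur subunit Sdhb had 88.2 CPM in Model against 83.0 CPM in Control, so the 4 subunits of 1 complex differed from Control by unequal factors. Succinyl-CoA synthetase subunits lay near 1, with ratios of 0.896 for Sucla2, 0.932 for Suclg1 and 0.952 for Suclg2.

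In the beta-oxidation spiral, Echs1, the short-chain enoyl-CoA hydratase, was higher, with 72.2 CPM in Model against 36.6 CPM in Control (ratio 1.97, 1.82 to 2.14). Eci1, an isomerase for unsaturated fatty acids, was lower, with 9.84 CPM in Model against 18.8 CPM in Control (ratio 0.522, 0.430 to 0.630). The other steps stayed within 1.5-fold. Cpt1a had 139 CPM in Model against 188 CPM in Control (ratio 0.738), Acadl had 82.8 CPM in Model against 76.4 CPM in Control, and Hadha, the alpha subunit of the trifunctional protein, had 100 CPM in Model against 136 CPM in Control (ratio 0.734). Hadhb, its beta subunit, had 92.6 CPM in Model against 98.0 CPM in Control.

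Hadha and Hadhb lie back to back across the 85 bases printed above, and their balance in alveolar macrophages differed between libraries. Hadha gave 48.1% of the UMIs of the pair in PD00 alveolar macrophages, 52.0% in Model and 58.2% in Control. Their exact binomial intervals did not overlap. In interstitial macrophages the shares were 56.1% in PD00, 59.4% in Model and 67.1% in Control. There the Model interval overlapped the others, while those of PD00 (53.5% to 58.7%) and Control (58.8% to 74.8%) did not overlap. In T cells the shares were 45.1% in PD00, 48.3% in Model and 48.2% in Control, with overlapping intervals. B cells had 48.8% in PD00, 49.3% in Model and 58.4% in Control. Their Control interval (53.5% to 63.1%) lay above the Model interval (45.3% to 53.3%) and that of PD00. Control also had the highest share in NK cells, ILC2, dendritic cells, neutrophils and both monocyte classes, with overlapping intervals. Such a share reads the 2 genes' 3′ ends and is no ratio of proteins.

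Cells named alveolar macrophages were not alike in Model and Control beyond these genes. In Control 94.4% of them lay in expression cluster 0, while 91.9% in PD00 and 86.9% in Model lay in cluster 6. The 12 alveolar macrophage markers summed to 7459 CPM in PD00 and 7186 CPM in Model, against 8296 CPM in Control, with no marker at 0. The sums hide markers that went in opposite directions. Marco had 1.13, 2.77 and 34.1 CPM in PD00, Model and Control, Plet1 988, 818 and 2170 CPM, and Krt79 130, 153 and 243 CPM. Ear2 had 2732, 3216 and 1288 CPM in the same order, and Fabp4 had 101, 80.7 and 65.9 CPM. The 6 classical monocyte markers summed to 2539 CPM in PD00 and 2812 CPM in Model, against 514 CPM in Control alveolar macrophages, and the 8 eosinophil markers, which share Siglecf with the macrophages, to 817, 1463 and 369 CPM. Their part in the gene differences was not tested. Cycling cells made up 37.7% of PD00, 33.2% of Model and 22.8% of Control alveolar macrophages.

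When PD00 was set against Model, alveolar macrophages differed in 1 member. Acaa1b was higher in PD00, at 54.6 CPM against 21.5 CPM in Model (ratio 2.54, 2.22 to 2.90). No TCA gene passed 1.5-fold in either direction, beside 3.06% of all genes higher and 4.76% lower in PD00, and Acaa1b alone of the 17 oxidation genes did. The medians were −0.06 for the TCA genes, 0.05 for the oxidation genes and 0.05 for all genes. Several of the genes highest in Model had smaller differences with intervals clear of 1. Mdh2 had 185 CPM in PD00 against 254 CPM in Model (ratio 0.728, 0.695 to 0.762). Echs1 had 55.7 CPM in PD00 against 72.2 CPM in Model (ratio 0.771), and Idh3a had 44.3 CPM in PD00 against 53.1 CPM in Model (ratio 0.835). Cpt1a had 160 CPM in PD00 against 139 CPM in Model (ratio 1.15). Idh1, with 304 CPM in PD00 against 293 CPM in Model, had an interval that included 1. Because PD00 and Control are each set against the same Model library, no agreement between these ratios is drawn.

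**Figure D2:**
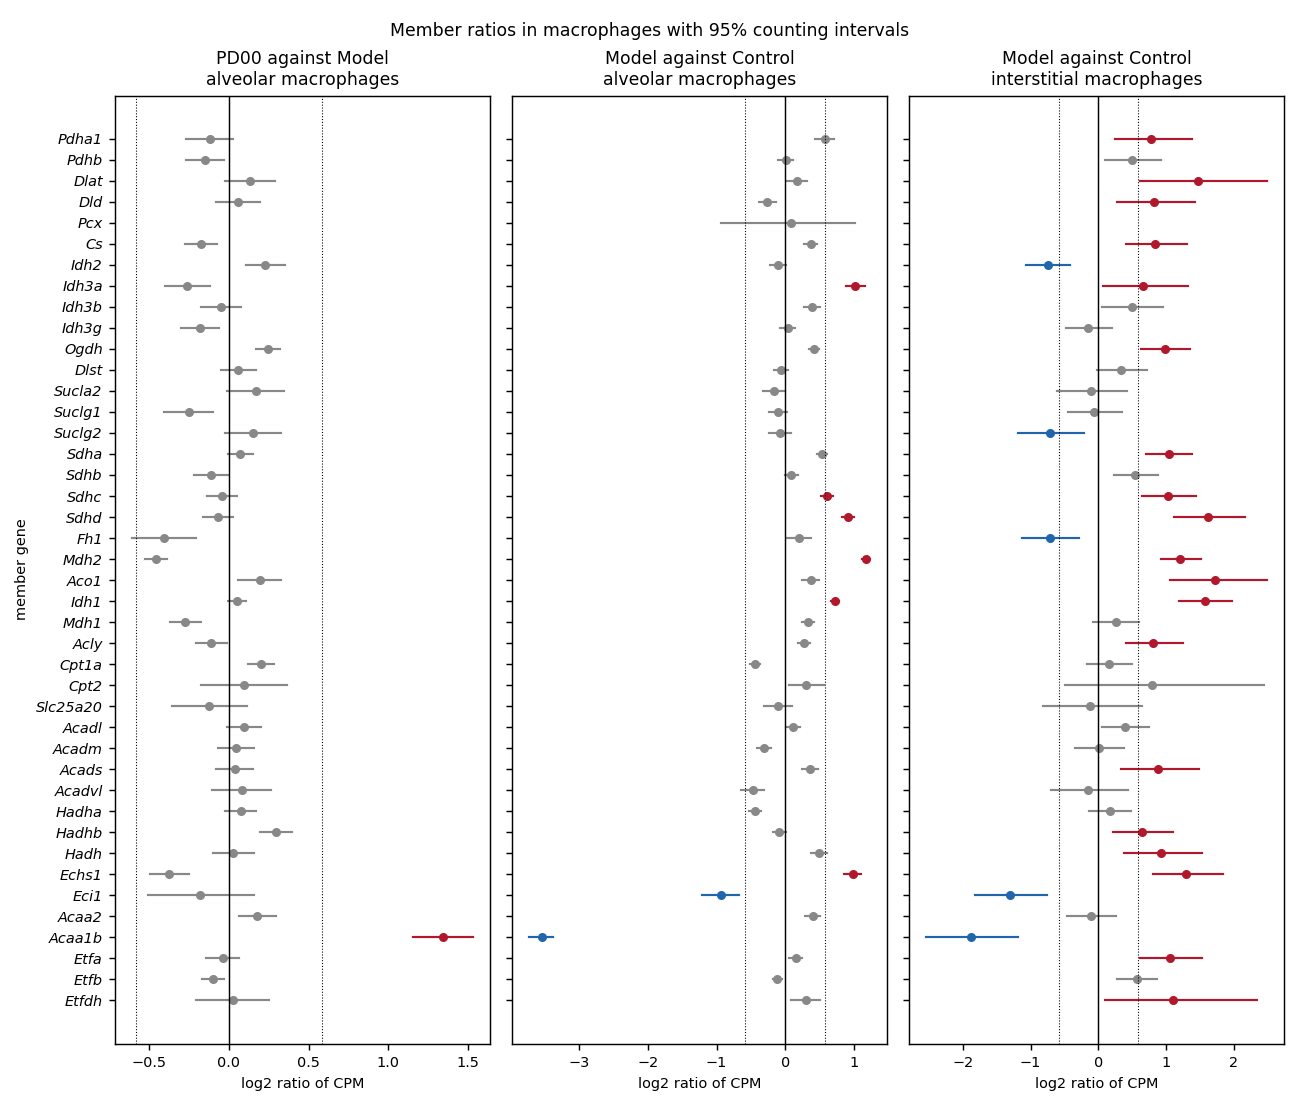
Log2 ratio of CPM for each member in macrophages, PD00 against Model (left panel) and Model against Control (other panels), with 95% counting intervals. Points are red or blue where the ratio is past 1.5-fold (dotted lines) with an interval clear of 1, and the horizontal scales differ between panels. Acaa1b is the lone coloured gene on the left, and many TCA genes are red in interstitial macrophages.

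Interstitial macrophages, which lie in the lung tissue rather than the air spaces, differed more broadly. Of 24 measured TCA genes, 13 were higher and 3 lower in Model than in Control, beside 21.1% of 9396 genes higher and 20.3% lower. Of 17 oxidation genes, 7 were higher and 2 lower. The medians were 0.72 and 0.39, against 0.00 for all genes. Summed levels were 1676 CPM in Model against 1074 CPM in Control for the TCA genes, and 854 CPM in Model against 667 CPM in Control for the oxidation genes. The Control class held 196 cells with a median of 5496 UMIs, against 932 Model cells with a median of 11305.

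Of the cytosolic genes, Aco1 had 49.1 CPM in Model against 14.8 CPM in Control (ratio 3.31, 2.08 to 5.63), and Idh1 had 142 CPM in Model against 47.7 CPM in Control (ratio 2.98, 2.29 to 3.94). Acly, the ATP citrate lyase that makes cytosolic acetyl-CoA, had 72.4 CPM in Model against 41.1 CPM in Control (ratio 1.76). All 3 were higher in Model, and Mdh1 at a ratio of 1.19 was not. Among the mitochondrial enzymes, Sdhd had 83.5 CPM in Model against 27.2 CPM in Control (ratio 3.07, 2.17 to 4.49), and Mdh2 had 190 CPM in Model against 82.3 CPM in Control (ratio 2.31). Sdha and Sdhc both had a ratio of 2.05, Ogdh, of the oxoglutarate dehydrogenase complex, one of 1.98, and Cs one of 1.79. The 3 lower genes were Idh2, with 47.0 CPM in Model against 79.0 CPM in Control (ratio 0.594), Fh1, the fumarase, with 27.5 CPM in Model against 45.3 CPM in Control (ratio 0.608), and Suclg2 (ratio 0.610). Idh1 and Idh2, which carry out the same reaction in different compartments, thus differed in opposite directions. Of the genes of pyruvate entry, Dlat (ratio 2.79), Dld (1.78) and Pdha1 (1.72) were higher.

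Among the oxidation genes, Echs1 had 68.8 CPM in Model against 28.0 CPM in Control (ratio 2.46), and Etfa, which hands the electrons of beta-oxidation on, had 73.7 CPM in Model against 35.4 CPM in Control (ratio 2.08). Acads, Hadh and Hadhb were higher at ratios of 1.85, 1.90 and 1.57. Eci1 was lower, with 12.7 CPM in Model against 31.3 CPM in Control (ratio 0.405), as was Acaa1b, with 6.03 CPM in Model against 22.2 CPM in Control (ratio 0.271). That Control level rested on 27 UMIs, beside 23.7 CPM in Control neutrophils. Median depth was 5496 UMIs in these macrophages and 1947 in neutrophils. Free RNA was not measured in interstitial macrophages, so its part in this level is unknown. Cpt1a, with 76.9 CPM in Model against 69.1 CPM in Control, and Hadha, with 88.7 CPM in Model against 79.0 CPM in Control, had intervals that included 1, as did Acadm. Acadl had 83.2 CPM in Model against 63.4 CPM in Control (ratio 1.31).

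The interstitial class also differed in makeup between libraries. Cluster 8, which held 0 Control cells, gave 34.9% of PD00 and 28.8% of Model interstitial macrophages, and 99.0% of Control ones lay in cluster 7. Without cluster 8, an alternative added after the data were seen, the log2 ratio of Idh1 was 1.17, against 1.58 with it. The 11 interstitial markers summed to 6420 CPM in PD00 and 7155 CPM in Model, against 13077 CPM in Control, with none at 0. The 6 classical monocyte markers summed to 2862 CPM in PD00 and 2635 CPM in Model, against 861 CPM in Control, and the 8 eosinophil markers to 1071, 1760 and 70.8 CPM, with Il5ra, Epx, Prg2 and Rnase2a at 0 in Control. The 10 neutrophil markers summed to 264, 327 and 1290 CPM, and the 12 alveolar macrophage markers to 2512, 2467 and 2006 CPM. Their part in the gene differences was not tested.

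In PD00 against Model, no member of interstitial macrophages passed 1.5-fold, beside 1.96% of all genes higher and 3.74% lower in PD00. The medians were −0.07 for the TCA genes, −0.03 for the oxidation genes and 0.03 for all genes. Fh1 had 18.9 CPM in PD00 against 27.5 CPM in Model (ratio 0.688, 0.568 to 0.832), and Mdh2 had 149 CPM in PD00 against 190 CPM in Model (ratio 0.785). Cs, Idh1, Sdha, Acadl and Hadha had intervals that included 1, and Cpt1a had 88.0 CPM in PD00 against 76.9 CPM in Model (ratio 1.15).

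**Figure D3:**
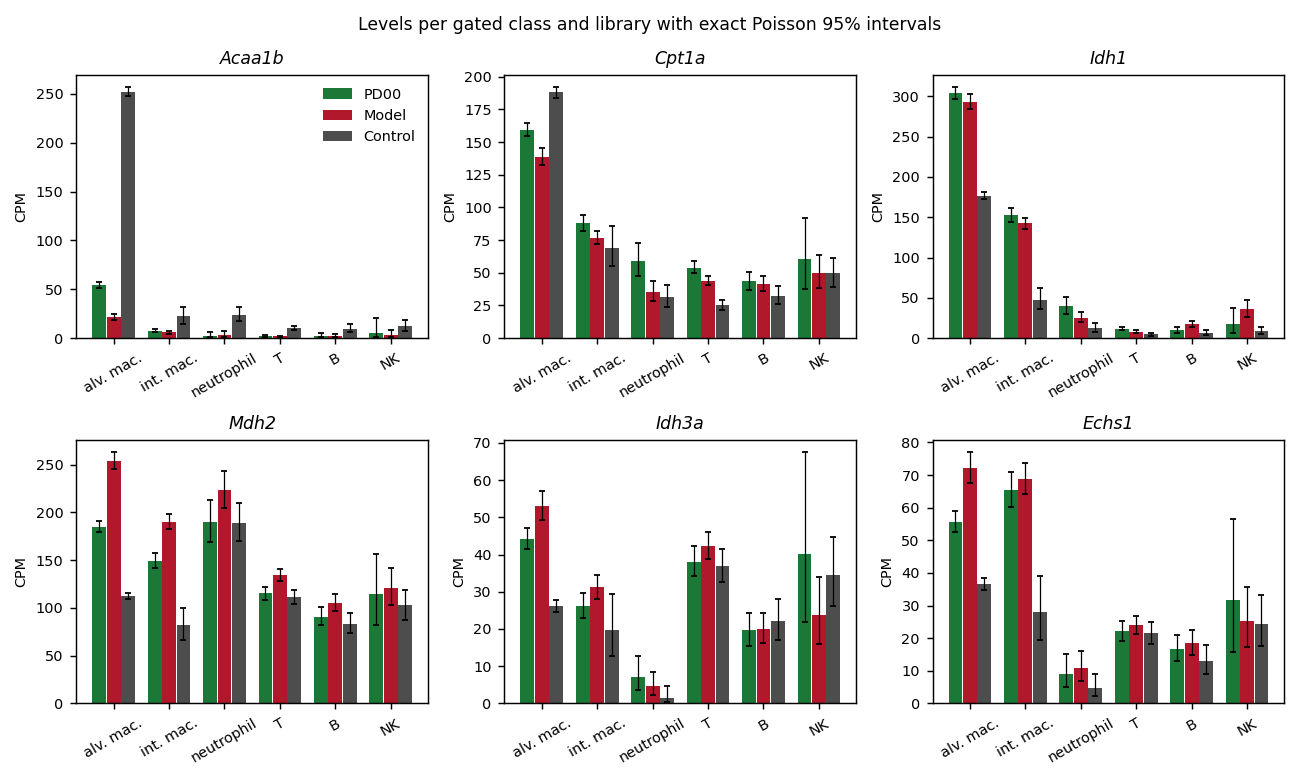
Level in CPM of 6 member genes in 6 gated immune classes (alveolar and interstitial macrophages, neutrophils, T, B and NK cells), with PD00, Model and Control bars and exact Poisson 95% intervals for counting error. Acaa1b in alveolar macrophages is at 54.6, 21.5 and 252 CPM in PD00, Model and Control, and Mdh2 there is at 185, 254 and 112 CPM.

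In T cells, 4 of 24 TCA genes and 4 of 16 oxidation genes were higher in Model than in Control, and 1 oxidation gene, Acaa1b, was lower. All measured genes had 22.6% higher and 7.83% lower, so the members' share of higher genes was close to that of all genes. The medians of 0.17 for the TCA genes and 0.25 for the oxidation genes lay near the 0.18 of all genes, and the TCA median was −0.087 when ribosomal protein, mitochondrially encoded, haemoglobin and immunoglobulin genes were left out of the scaling. Cpt1a had 54.0 CPM in PD00 and 44.1 CPM in Model, against 25.2 CPM in Control, a ratio of 1.75 for Model against Control (1.48 to 2.07). Etfb, the partner of Etfa, had 76.5 CPM in Model against 47.0 CPM in Control (ratio 1.63), Hadh had 37.7 CPM in Model against 24.0 CPM in Control (ratio 1.57), and Acly had 52.9 CPM in Model against 34.4 CPM in Control (ratio 1.54). In log2 units these ratios were 0.55 for Cpt1a, 0.45 for Etfb, 0.39 for Hadh and 0.36 for Acly under that scaling, all under 1.5-fold. Cs, with 50.7 CPM in Model against 33.3 CPM in Control, had a ratio of 1.52. Sdha (ratio 1.17), Acadl (1.48) and Hadha (1.07) did not pass. Acaa1b had 1.80 CPM in Model against 10.1 CPM in Control, where it is read as background. The largest share of T cells lay in cluster 1 in PD00 (51.9%) and Model (39.9%) but in cluster 4 in Control (72.5%), and cluster 1 held 66 Control cells. Cycling cells made up 23.6% of PD00, 28.0% of Model and 9.08% of Control T cells.

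T cells of PD00 against Model had 2 members higher and 0 lower, beside 3.49% of all genes higher and 3.12% lower. Suclg2, the GDP-forming subunit of succinyl-CoA synthetase, had 24.3 CPM in PD00 against 15.5 CPM in Model (ratio 1.57, 1.29 to 1.90). Cpt2, the inner-membrane carnitine palmitoyltransferase, had 3.47 CPM in PD00 against 1.65 CPM in Model (ratio 2.11, 1.19 to 3.82). Cpt1a, at a ratio of 1.23, and Idh1, at 1.42, did not reach 1.5-fold.

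Neutrophils, the class with the lowest levels, had 16 TCA and 10 oxidation genes with enough UMIs. Of these, 8 TCA genes were higher and 0 lower in Model than in Control, and 2 oxidation genes were higher and 2 lower, beside 21.4% of all genes higher and 7.56% lower. Cs had 41.6 CPM in Model against 21.0 CPM in Control (ratio 1.98, 1.35 to 2.94). Mdh1 had 19.5 CPM in Model against 8.41 CPM in Control (ratio 2.32), Acly had 34.2 CPM in Model against 17.4 CPM in Control (ratio 1.97), and Dlst, of the oxoglutarate dehydrogenase complex, had 55.4 CPM in Model against 31.5 CPM in Control (ratio 1.76). Slc25a20 was lower, with 44.6 CPM in Model against 67.8 CPM in Control (ratio 0.658, 0.503 to 0.859). It was under 1.5-fold, at log2 ratios between −0.58 and −0.47, with the stricter gate, clusters, doublets kept or equal weight per cell, and without cycling cells, immature neutrophils or cluster 11. Sdha, at 42.4 CPM in Model against 42.1 CPM in Control, had an interval that included 1, as did Cpt1a, Acadl and Hadha. Neutrophils with at least 3 UMIs of the granule genes Camp, Ltf and Ngp, which mark immature cells, made up 8.22% in PD00, 11.5% in Model and 0.543% in Control. Without them, the log2 ratio of Dlst was 0.33, against 0.82 with them.

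Neutrophils of PD00 against Model had 2 members higher and 0 lower, beside 5.84% of all genes higher and 5.06% lower. Cpt1a had 59.1 CPM in PD00 against 35.5 CPM in Model (ratio 1.67, 1.22 to 2.27). Idh1 had 39.9 CPM in PD00 against 25.6 CPM in Model (ratio 1.56), and 30.6% of its PD00 UMIs came from 1 cell. These levels were 13.1% of the alveolar macrophage level in PD00 and 8.71% in Model. Both lay a little above Ear2, the highest of the 5 markers, at 11.1% and 7.85%. The part of free RNA in them was not tested. The log2 ratio of 0.64 was 0.35 with clusters, 0.38 with equal weight per cell and 0.57 with median-of-ratios scaling. In eosinophils, Cpt1a was on the other side, with 55.0 CPM in PD00 against 91.5 CPM in Model (ratio 0.601, 0.376 to 0.938), but its log2 ratio of −0.73 was −0.10 with clusters in place of the gate, −0.35 with equal weight per cell and −0.52 at up to 10% mitochondrial UMIs. Eosinophils had 0 TCA genes past 1.5-fold, with 1 oxidation gene, Acadm, higher and 2, Cpt1a and Etfa, lower, beside 6.42% of all genes higher and 6.91% lower. The intervals of Acadm and Etfa included 1. Control held 13 gated eosinophils, too few for a level.

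B cells differed in few members. In Model against Control, 2 TCA genes were higher and 1 lower, and 2 oxidation genes were higher and 0 lower, beside 15.3% of all genes higher and 8.45% lower. Slc25a20 had 27.7 CPM in Model against 10.1 CPM in Control (ratio 2.73, 1.82 to 4.24). Etfb had 64.0 CPM in Model against 42.3 CPM in Control (ratio 1.51), and Dlat, the acetyltransferase of pyruvate dehydrogenase, had 16.0 CPM in Model against 24.1 CPM in Control (ratio 0.663). The log2 ratio of Dlat was −0.54 with doublets kept, −0.58 at up to 10% mitochondrial UMIs and −0.44 without cycling cells, all under 1.5-fold. Idh1 had 9.80 CPM in PD00 and 17.6 CPM in Model, against 6.64 CPM in Control, close to the background set by free RNA, and 13.8% of the Model UMIs came from 1 cell. With clusters in place of the gate, its log2 ratio for Model against Control was −0.079, against 1.41. In PD00 against Model, 1 TCA gene, Idh1, was lower (ratio 0.557) and no other member passed, beside 3.31% of all genes higher and 3.67% lower. That ratio was 0.046 in log2 units with doublets kept and 0.017 with clusters in place of the gate, against −0.84.

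In NK cells, 2 TCA genes were higher and 2 lower in Model than in Control, and 1 of 14 oxidation genes was lower, beside 9.84% of all genes higher and 11.6% lower. Sdhb had 67.4 CPM in Model against 112 CPM in Control (ratio 0.601, 0.460 to 0.781), and Etfa had 24.6 CPM in Model against 40.0 CPM in Control (ratio 0.615). With the stricter gate, the log2 ratios of Sdhb and Etfa were −0.55 and −0.47, under 1.5-fold. Cs had 51.6 CPM in Model against 33.4 CPM in Control (ratio 1.54), a log2 ratio of 0.63 that was 0.39 with doublets kept, 0.36 with clusters in place of the gate and 0.57 when ribosomal protein and similar genes were left out of the scaling. Idh1 had 35.7 CPM in Model against 8.35 CPM in Control (ratio 4.27, 2.30 to 8.43), but its log2 ratio of 2.10 was 0.19 with doublets kept.

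Across the gated classes, Idh1 was higher in Model in 8 of 9 classes measured, with ratios between 0.89 and 4.27. Several of these had a Control level called background above. Cs was higher in 6 of 9 classes, NK cells among them. Mdh2 had a ratio above 1 in all 10 classes measured and passed 1.5-fold in 3, namely alveolar macrophages, interstitial macrophages and classical monocytes. Classical monocytes, with 262 Model and 93 Control cells, had 10 of 24 TCA genes and 5 of 15 oxidation genes higher, and 1 and 2 lower, beside 24.5% of all genes higher and 17.8% lower. Cluster 17 held 28.1% of these monocytes in PD00 and 41.6% in Model, against 98.9% in Control, and the macrophage cluster 8 held 41.3% in PD00 and 24.4% in Model. There Aco1 had a ratio of 3.57 (1.82 to 7.97), and Sdha had 128 CPM in Model against 53.5 CPM in Control (ratio 2.39). Acaa1b was lower in Model in all 4 classes in which it was measured. Its Control level was 252 CPM in alveolar macrophages, and neutrophils were next with 23.7 CPM. ILC2 had 0 members higher, 3 of 11 TCA genes and 5 of 5 oxidation genes lower, beside 15.7% of all genes higher and 18.1% lower. The UMI minimum applies to both sums added, and Control ILC2 held 706892 UMIs against 416923 in Model. Genes high in Control therefore reached it more easily, and the 5 oxidation genes do not stand for the full list. Hadha passed on 16 UMIs in Model and 48 in Control, while Hadhb, with 23 and 26, did not reach the minimum. Among the lower genes, Hadh had 31.2 CPM in Model ILC2 and 83.5 CPM in Control ILC2 (ratio 0.374). The intervals of Hadha and Acaa2 included 1. Cluster 19 held 65.7% of ILC2 in PD00 and 69.2% in Model, against 96.8% in Control, and the T cell cluster 1 held 28.3% in PD00 and 21.2% in Model.

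Dendritic cells, with 223 Model and 113 Control cells, had 8 of 24 TCA genes and 3 of 14 oxidation genes higher in Model, and 1 TCA gene lower, beside 21.6% of all genes higher and 8.25% lower. Dlst had 54.2 CPM in Model against 25.6 CPM in Control (ratio 2.11, 1.43 to 3.23), and Hadhb had 52.3 CPM in Model against 30.6 CPM in Control (ratio 1.71). Suclg2 was the lower gene (ratio 0.517). Cycling cells made up 35.4% of PD00, 39.5% of Model and 64.6% of Control dendritic cells, and their part in these differences was not tested. Nonclassical monocytes had 3 of 18 TCA genes lower and 0 higher, and 1 of 9 oxidation genes in each direction (the lower, Etfa, with an interval that included 1), beside 9.47% of all genes higher and 8.01% lower. Their Cpt1a was the higher gene, with 84.5 CPM in Model against 40.2 CPM in Control (ratio 2.10, 1.34 to 3.40), and Sdhb had 45.3 CPM in Model against 95.9 CPM in Control (ratio 0.472).

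The smaller classes of PD00 against Model held few differences. Plasma cells, of which Control held 28, had 0 of 24 TCA genes and 0 of 15 oxidation genes past 1.5-fold, beside 3.67% of all genes higher and 6.96% lower. Classical monocytes had 1 TCA gene higher, Suclg2, with 33.6 CPM in PD00 against 19.8 CPM in Model (ratio 1.70, 1.16 to 2.49), beside 3.79% of all genes higher and 6.21% lower. Suclg2 was thus past 1.5-fold in PD00 in T cells and classical monocytes, 2 of the 7 classes where it was measured. Dendritic cells had 1 TCA gene higher, Idh1, with 42.6 CPM in PD00 against 25.4 CPM in Model (ratio 1.68), beside 3.99% of all genes higher and 3.62% lower. ILC2 had 2 of 4 oxidation genes higher, beside 10.4% of all genes higher and 2.82% lower. Of these, Hadh had 67.8 CPM in PD00 and 31.2 CPM in Model, against 83.5 CPM in Control, with Model the lowest library. The ratio of PD00 against Model was 2.17 (1.14 to 4.43), while the interval of the other gene, Hadha, included 1. Nonclassical monocytes had 2 oxidation genes higher and 1 lower, beside 7.41% of all genes higher and 6.32% lower, and NK cells had 3 members higher and 2 lower, beside 9.40% of all genes higher and 5.73% lower. Of those 5 NK cell members, Etfb alone had an interval that left out 1 (ratio 1.56, 1.05 to 2.28).

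**Figure D4:**
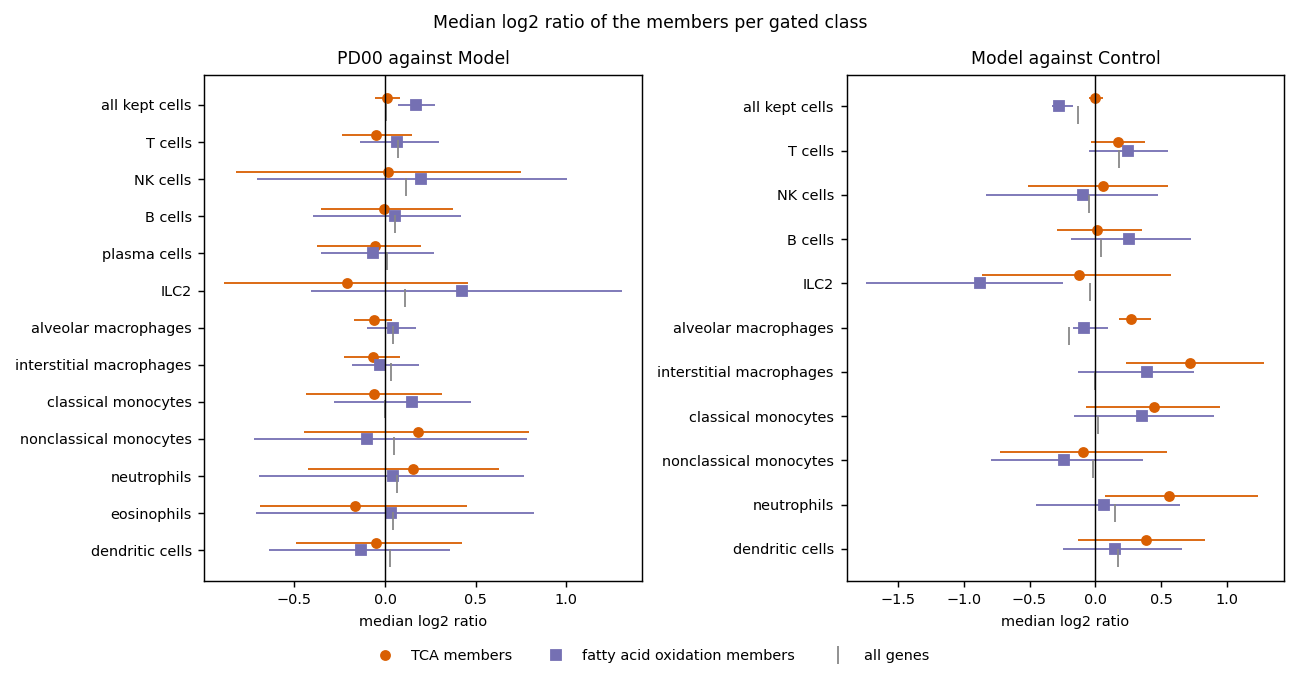
Median log2 ratio of the TCA and fatty acid oxidation genes in each gated immune class, PD00 against Model (left) and Model against Control (right). Lines run from the median of the lower to the median of the upper counting bounds of the genes, and grey ticks give the median of all measured genes. Interstitial macrophages have the highest TCA median in Model against Control, 0.72, and on the left the oxidation median of ILC2, 0.43, lies farthest from 0.

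Over all kept cells, the sums mix classes whose shares differ between libraries. In Model against Control, 2 of 25 TCA genes were higher and 0 lower, and 0 of 17 oxidation genes were higher and 5 lower, beside 12.3% of all genes higher and 18.1% lower. The medians were 0.00 for the TCA genes, −0.28 for the oxidation genes and −0.13 for all genes. Cpt1a had 94.5 CPM in PD00 and 73.9 CPM in Model, against 129 CPM in Control, so it was lower in Model over all cells (ratio 0.573) while it was higher in Model T cells. Giving every class equal weight, the log2 ratio of Cpt1a was 0.18. The oxidation median became −0.047 and the TCA median 0.11 under the same weights. Acaa1b had 19.96 CPM in PD00 and 6.74 CPM in Model, against 150 CPM in Control. In PD00 against Model, Acaa1b alone passed (ratio 2.96, 2.68 to 3.27), beside 3.50% of all genes higher and 7.29% lower. In these sums, fewer alveolar macrophages and less RNA per cell cannot be told apart.

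Of the 63 other genes of the pathways, the counts in alveolar macrophages were mixed. In Model against Control, 3 of 21 measured TCA and pyruvate genes were higher and 4 lower, 4 of 24 other oxidation genes were higher and 3 lower, and 2 of 10 lipid uptake and control genes were higher and 3 lower, beside 14.2% of all genes higher and 25.1% lower. Got1, the cytosolic aspartate aminotransferase, had 86.7 CPM in PD00 and 93.3 CPM in Model, against 17.5 CPM in Control. Cd36, a fatty acid transporter, had 552 CPM in PD00 and 468 CPM in Model, against 120 CPM in Control, and Ppargc1b, a coactivator of mitochondrial genes, had 37.6, 52.2 and 10.4 CPM. Acot1, a cytosolic acyl-CoA thioesterase, had 4.95 CPM in PD00 and 1.38 CPM in Model, against 33.2 CPM in Control, the same order as Acaa1b. Pparg, the receptor that alveolar macrophages depend on, had 54.4 CPM in PD00 and 44.7 CPM in Model, against 94.8 CPM in Control. In interstitial macrophages, Fabp5, a fatty acid binding protein, had 753 CPM in Model against 37.0 CPM in Control (ratio 20.3). There 5 of 17 other TCA genes, 3 of 21 other oxidation genes and 6 of 10 uptake and control genes were higher in Model, and 2, 5 and 1 were lower, beside 21.1% of all genes higher and 20.3% lower.

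Pdk1, the kinase that switches off pyruvate dehydrogenase, was the gene of these lists with the highest ratio of PD00 against Model in T cells. It had 67.0 CPM in PD00 T cells, 4.08 CPM in Model T cells and 8.10 CPM in Control T cells, a ratio of 16.4 for PD00 against Model (12.4 to 22.2). Its UMIs were in 15.3% of PD00, 1.999% of Model and 3.47% of Control T cells, and no cell gave more than 1.68% of the PD00 UMIs. Pdk1 had 35.3 CPM in PD00 and 8.30 CPM in Model B cells, against 4.90 CPM in Control B cells, and in alveolar macrophages 6.76, 3.23 and 3.74 CPM. The alveolar macrophage ratio of PD00 against Model was 2.09 (1.48 to 3.02). Interstitial macrophages had 6.54 CPM in PD00 against 1.95 CPM in Model (ratio 3.35, 2.03 to 5.68). Pdk1 was higher in PD00 in all 5 classes where it was measured, plasma cells included. The pyruvate dehydrogenase genes themselves did not pass 1.5-fold in PD00 T cells, with Pdha1 at 71.2 CPM in PD00 against 72.1 CPM in Model and Pdhb at 63.0 CPM in PD00 against 56.4 CPM in Model. Of the measured pathway genes in T cells, 1 of 19 other TCA genes, 0 of 21 other oxidation genes and 2 of 10 uptake and control genes were higher in PD00, and none was lower, beside 3.49% of all genes higher and 3.12% lower.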

How the data were processed

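The deposited matrices give raw UMI counts of each gene in each barcode, not scaled by the authors. Libraries were made with 10x 3' version 3 chemistry, per the labels' protocols. The reads went through Cell Ranger 3.1.0 and STAR on mm10, per the submitters' processing notes, while the matrices name cellranger 5.0.0, per the file headers. Whether counting used strand is not given in the sources used here, and 11 members overlap a measured gene on the opposite strand and 0 on the same strand.

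Barcodes needed 500 UMIs, 200 genes and a mitochondrial share of UMIs up to 20%, and doublets with a Scrublet score above 0.2 (scanpy 1.11.5) were removed, 274 in PD00, 252 in Model and 421 in Control. A cell joined a class when the mean standardised log level of its marker panel was at least 0.5, at least 3 markers were present and the next panel was at least 0.1 lower. ILC2 also needed 0 UMIs of Cd3e, Cd3d and Cd3g. These thresholds, and leaving Chil3 out of the monocyte panel, were chosen after the data were seen. Acod1 is a neutrophil marker here and no finding in neutrophils.

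UMIs were summed per class and library and scaled to CPM. Exact 95% intervals (scipy 1.17.1) are Poisson for levels, Clopper-Pearson for shares and, for ratios, Clopper-Pearson conditional on the summed UMIs. Classes needed 50 cells in both libraries, and genes 50 UMIs over both sums. The ratio calculation was tested on simulated data. Members, gene lists and markers were chosen with earlier results of these data known. Named members are up to 4 highest and 4 lowest past 1.5-fold with an interval clear of 1, in each of the 6 classes with the most cells, plus Cs, Idh1, Sdha, Cpt1a, Acadl and Hadha. Other genes follow the same rule, and further values were chosen after they were seen. Longer motifs for NRF1 and for peroxisome proliferator receptors were also searched in the promoters, and their counts were seen but are not reported here. Alternatives changed the cell filters, doublets, gate, scaling, weights, minimum UMIs and cycling or immature cells.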

Additional observations from a re-analysis of the deposited data

Results flagged for a closer look

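Some genes lay past 1.5-fold in opposite directions in different classes of the same comparison, and each such difference between classes was not tested. In Model against Control, Dlat had a ratio of 2.79 in interstitial macrophages and 0.663 in B cells, where it was under 1.5-fold with doublets kept, at up to 10% mitochondrial UMIs and without cycling cells. Slc25a20 had a ratio of 2.73 in B cells and 0.658 in neutrophils, where it was under 1.5-fold in 7 alternatives, at log2 ratios between −0.58 and −0.47. Eci1 had a ratio of 1.51 in T cells, 0.522 in alveolar macrophages and 0.405 in interstitial macrophages. Scaling without ribosomal protein and similar genes left 0 oxidation genes higher in T cells, Eci1 included. Etfa had a ratio of 2.08 in interstitial macrophages and 0.615 in NK cells, where it was under 1.5-fold with the stricter gate. In PD00 against Model, Idh1 had a ratio of 1.56 in neutrophils and 0.557 in B cells. Beside the alveolar macrophage markers in free RNA, Idh1 lay within their range in B cells and a little above it in neutrophils. The B cell ratio changed sign with doublets kept and with clusters. Cpt1a had a ratio of 1.67 in neutrophils and 0.601 in eosinophils, where its log2 ratio was −0.10 with clusters and −0.35 with equal weight per cell. None of these genes' classes has a replicate library.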

How the results depend on the processing

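No paired analysis was possible because each treatment has 1 library. Of 342 alternative values of the 28 medians, 332 lay between the median lower and the median upper counting bound of the genes. The remaining 10 did not. That span is as wide as the interval of a typical single gene, so lying inside it says little about how stable a median is. In Model against Control, median-of-ratios scaling moved the TCA and oxidation medians to 0.14 and −0.14 over all cells and to 0.47 and 0.12 in alveolar macrophages, and brought the median of all genes to 0.00 in both. Equal weight per class gave 0.11 and −0.047 over all cells, and 0.037 for the oxidation median of PD00 against Model. Leaving out cluster 8, chosen after seeing the data, gave a TCA median of −0.069 over all cells. Scaling without ribosomal protein and similar genes gave a TCA median of −0.087 in T cells, where all genes stood at −0.08. A minimum of 200 UMIs gave −0.60 for oxidation genes in neutrophils, with 1 gene left. Of 604 alternative values of 49 named member ratios, 4 changed sign: Cpt1a over all cells in Model against Control (0.18, equal weight per class), Idh1 in B cells in the same comparison (−0.079, clusters) and Idh1 in B cells in PD00 against Model (0.046 with doublets kept and 0.017 with clusters). The cause was not tested. Across settings, the number of TCA genes higher in Model than in Control ranged between 12 and 15 in interstitial macrophages, 4 and 9 in alveolar macrophages, 0 and 11 in neutrophils, and 1 and 5 in T cells. For oxidation genes these ranges were 5 to 8, 1 to 3, 0 to 5 and 0 to 4. Depth limits ILC2 most, where 11 TCA and 5 oxidation genes had enough UMIs in Model against Control, and 8 and 4 in PD00 against Model.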
